A study of Mus musculus with 35 samples.

Results

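The YAP-TEAD target genes described here are 10 genes that are commonly read as targets of the coactivator YAP and its DNA-binding partners, the TEAD factors: Ctgf, Cyr61, Ankrd1, Amotl1, Amotl2, Ajuba, Axl, Crim1, Nuak2 and Frmd6. They were chosen by name, and their peaks are all peaks whose nearest annotated gene, as given in the peak lists, is one of them. These are 10 of 23815 genes named in any list, and 1066 of 1211551 peaks. Ctgf and Cyr61 are the older names of Ccn2 and Ccn1.

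The series holds 35 mouse chromatin immunoprecipitation sequencing (ChIP-seq) libraries from pre-B cell progenitors that grow attached to stroma, the supporting cells of the bone marrow. They were kept in culture for 3 to 8 passages and came from wild-type mice (WT) or from mice labelled IKDN CD2 Cre, in which a Cre recombinase under the CD2 promoter, active in lymphoid cells, goes with a dominant-negative Ikaros allele (IKDN). Ikaros is a zinc finger factor of lymphoid cells that promotes pre-B cell differentiation. A peak list was used for 33 libraries, 16 WT and 17 IKDN, with 1 library per target and genotype, and the labels name no animals. A difference between genotypes therefore has no replicate check, no p-value and no SD. It compares 2 libraries, and it cannot be told apart from a difference between cultures.

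YAP and its relative TAZ have no DNA-binding domain and reach DNA mainly through TEAD factors, which bind a short motif whose core reads GGAATG on one strand and CATTCC on the other. The Hippo kinases hold YAP in the cytoplasm, and contact with matrix, cell stretching and integrin signals release it. Several targets feed back on the pathway: the angiomotin family, AJUBA and FRMD6 themselves act on YAP or its kinases, while CTGF and CYR61 are secreted matrix proteins.

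The promoters that held a TEAD1 peak together with the motif are shown because they give the letters around the motif at these starts. RefSeq promoter sequences of the GRCm38.p6 build were found for 8 of the 10 members, and the 250 bases before the start site were searched on both strands for GGAATG. In each line below the sequence runs 5′ to 3′ in the direction of transcription, and capitals mark the motif on either strand.
Amotl2 promoter, chr9:102717554-102717803, plus strand: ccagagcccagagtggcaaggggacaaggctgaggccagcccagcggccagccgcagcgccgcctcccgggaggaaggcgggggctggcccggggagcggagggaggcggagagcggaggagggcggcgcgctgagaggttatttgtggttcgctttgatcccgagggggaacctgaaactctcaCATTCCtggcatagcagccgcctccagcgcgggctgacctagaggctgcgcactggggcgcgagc
Cyr61 promoter, chr3:145649986-145650235, minus strand: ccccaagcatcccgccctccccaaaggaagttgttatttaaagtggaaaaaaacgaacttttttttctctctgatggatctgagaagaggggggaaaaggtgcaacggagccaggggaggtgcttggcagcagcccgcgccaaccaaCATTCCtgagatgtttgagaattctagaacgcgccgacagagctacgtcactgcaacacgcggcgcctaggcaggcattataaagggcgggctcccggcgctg
Ajuba promoter, chr14:54577662-54577911, minus strand: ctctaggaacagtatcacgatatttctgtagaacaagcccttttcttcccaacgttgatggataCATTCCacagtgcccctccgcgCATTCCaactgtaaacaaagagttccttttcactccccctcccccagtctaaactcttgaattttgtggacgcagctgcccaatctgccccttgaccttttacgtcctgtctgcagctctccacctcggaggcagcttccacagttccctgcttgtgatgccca
Ankrd1 promoter, chr19:36119845-36120094, minus strand: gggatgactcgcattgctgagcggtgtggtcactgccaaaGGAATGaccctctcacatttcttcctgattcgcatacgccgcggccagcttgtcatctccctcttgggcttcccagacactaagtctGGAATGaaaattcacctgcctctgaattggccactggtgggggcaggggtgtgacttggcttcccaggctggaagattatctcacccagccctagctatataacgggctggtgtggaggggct
The Amotl2 motif starts at position -65 and the Cyr61 motif at -103, counted from the start site, and TEAD1 peaks of both genotypes overlapped these sequences. The Ajuba sequence holds the motif at -186 and -164, and the Ankrd1 sequence at -210 and -123. Both were overlapped by a WT TEAD1 peak and by no IKDN TEAD1 peak. Axl, with a motif at -233, and Crim1, with a motif at -79, had no TEAD1 peak over the same 250 bases. Amotl1 and Frmd6 had neither a motif nor a peak there. The 1 Amotl1 start named in the lists, at 14615000, lies inside the annotated gene, chr9:14541966-14662974 on the minus strand. Distances given for Amotl1 are counted from this internal start. The sequences of the Ctgf and Nuak2 promoters are not shown. The motif was found in 12.6% of 32619 promoters of this length. It was found in 21.8% of the 3153 promoters overlapped by a WT TEAD1 peak and in 17.8% of the 5024 overlapped by an IKDN one. Among promoters overlapped by a TEAD1 peak from the top 5% of its list, the share was 45.8% of 264 in WT and 45.3% of 300 in IKDN. A match describes these letters and is not a measured binding site.

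TEAD1 was present at every member in both genotypes, and the strongest peaks of both lists included several of them. 6 of the 10 members in WT and 7 in IKDN had their best peak in the top 5% of the list by the authors' peak score, where 6.43% and 8.22% of all genes did. Crim1 counted in IKDN through a peak at -604 kb, while its best IKDN peak within 50 kb of the start stood 9.17% from the top. At least 1 peak was listed for 56.9% of all genes in WT and 67.1% in IKDN. The scale of the score is not stated, so a peak is given here by its rank within its own list. The WT list has 33450 peaks and the IKDN list 47671, and ranks from lists of different length do not show a change between genotypes. In bulk samples, fewer cells with bound TEAD1 or a mark and less of it per cell cannot be told apart.

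Amotl2, which codes for an angiomotin that binds YAP and holds it at cell junctions, led the members in both lists. Its promoter peak, at chr9:102717609-102717885 (mm10), ranked 34 in WT with a score of 144.2 and 3 in IKDN with a score of 1065.3. A second Amotl2 peak, in an intron 8.68 kb into the gene, ranked 346 in WT and 76 in IKDN. These were the 2 TEAD1 peaks of Amotl2 in each genotype, and both were shared. Ajuba, a LIM-domain protein that inhibits the kinases LATS1 and LATS2, had its best peak in an intron 1.83 kb from the start, at chr14:54575692-54575968. It ranked 596 in WT and 34 in IKDN. Frmd6, a FERM-domain protein upstream of the Hippo kinases, had its best peak in an intron 1.21 kb from the start, ranked 1051 in WT and 227 in IKDN. In both lists these peaks lay just inside the gene rather than over the 250 bases before the start.

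The order of the members within each list differed most for Ctgf. Ctgf stood 2nd among the 10 members in WT and 9th in IKDN, with its promoter peak at rank 489 (score 43.3) in WT and 10896 (score 16.5) in IKDN. Cyr61 stood 6th in WT and 8th in IKDN. Its promoter peak ranked 1353 (score 24.9) in WT and 2778 (score 45.6) in IKDN, 4.04% and 5.83% from the top. A peak 16.9 kb beyond the start ranked 1237 in WT and 20729 in IKDN. The best Cyr61 peak was thus this one in WT and the promoter peak in IKDN. Both genes, which code for secreted matrix proteins, held a lower place among the members in IKDN than in WT, as did Nuak2. The promoter peak of each also stood further from the top in IKDN, for Ctgf at 1.46% in WT and 22.9% in IKDN. The score was lower in IKDN at Ctgf and higher at Cyr61. Its scale is not stated, and the median score of the whole list was 6.01 in WT and 9.12 in IKDN.

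Ankrd1, a cofactor of striated muscle and stretched cells, went the other way in that order, from 7th in WT, level with Axl, to 3rd in IKDN. Its best IKDN peak lay -117 kb from the start, at chr19:36236669-36236945, with a score of 260.6 and rank 104, where the WT peak at the same place had a score of 5.11 and rank 20699. A second Ankrd1 site at -10.0 kb ranked 17165 in WT and 994 in IKDN, and the promoter peak, rank 12368 in WT, was not in the IKDN list. Nuak2, a kinase of the AMPK family that YAP induces and that promotes YAP activity, stood 3rd in WT and 5th in IKDN. In WT its best peak lay at the end of the gene, rank 526, and in IKDN it lay 19.4 kb from the start, rank 371. Axl, a receptor tyrosine kinase, had an intronic peak 6.85 kb into the gene, rank 4989 in WT and 1817 in IKDN. Amotl1, the second angiomotin of the set, had no peak in the top 5% of either list and stood last in both, with best ranks of 6356 and 21455.

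The number of TEAD1 peaks did not follow the length of the lists. The members together had 65 peaks in WT and 65 in IKDN. Per member, the WT and IKDN counts were 8 and 5 for Ctgf, 8 and 8 for Cyr61, 8 and 7 for Ankrd1, 8 and 6 for Amotl1, and 2 and 2 for Amotl2. They were 4 and 3 for Ajuba, 2 and 1 for Axl, 8 and 19 for Crim1, 6 and 5 for Nuak2, and 11 and 9 for Frmd6. So 7 of the 10 members had fewer peaks in IKDN, which was the case for 17.2% of all genes. That share includes genes without a WT peak, which cannot have fewer. At least 1 WT peak was listed for 56.9% of all genes and for each of the 10 members, so the 2 shares are not on the same footing.

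The threshold for a higher call was at least 2 peaks more in IKDN and at least 1.5 times the WT number, and the reverse for a lower one. Crim1 was called higher and Ctgf lower, where 18.1% of all genes were higher and 5.86% lower. Crim1 codes for a membrane protein that binds bone morphogenetic proteins. Within 50 kb of its start it had 4 TEAD1 peaks in each genotype, and its most distant IKDN peak lay at -1143 kb, with Crim1 still the nearest start named. These calls moved with the settings. With the same number of top-scored peaks from both lists, no member was higher and 4 were lower (Ctgf, Amotl1, Ajuba and Frmd6). Within 50 kb of the start, Frmd6 with 4 and 6 peaks was higher and none was lower.

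**Figure D1:**
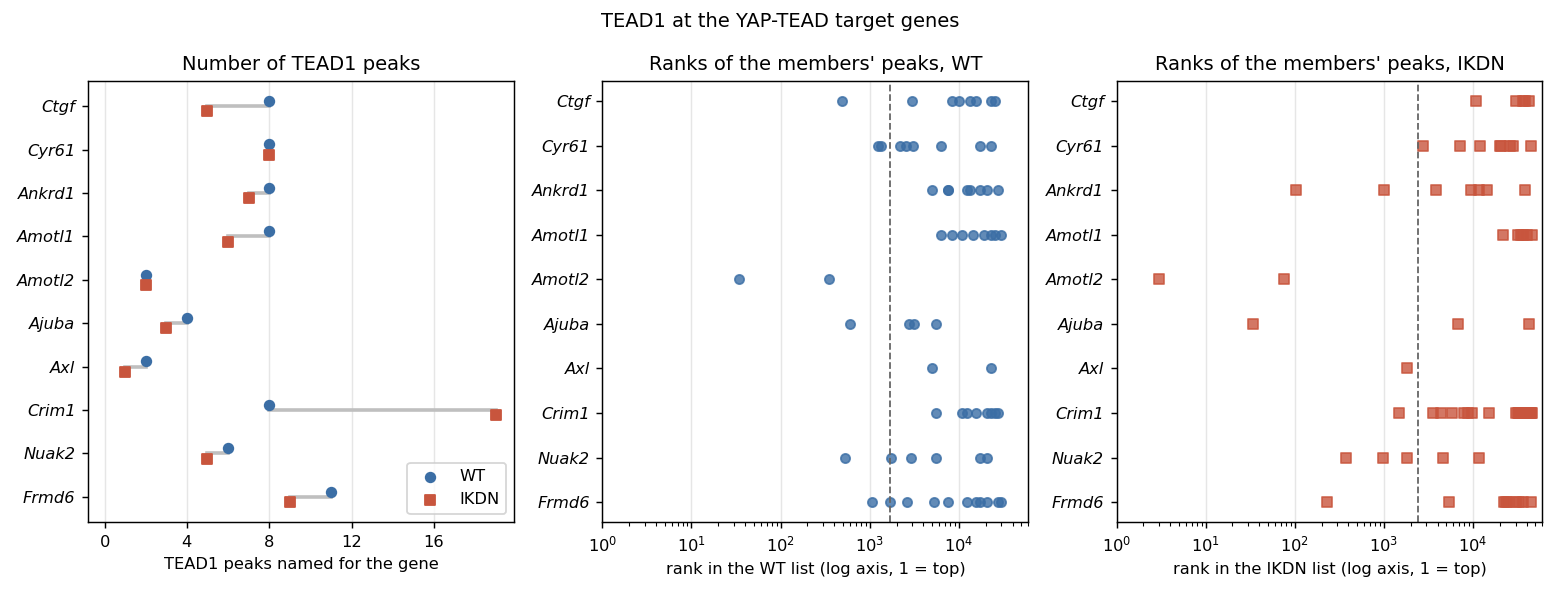
TEAD1 at the 10 members. Left: number of TEAD1 peaks named for each gene in WT (circles) and IKDN (squares), 1 library each. Middle and right: rank of every one of these peaks within the WT and the IKDN list on a log axis, with rank 1 at the top of the list and a dashed line at the top 5%. Amotl2 reaches rank 34 in WT and 3 in IKDN, Ctgf rank 489 in WT and 10896 in IKDN, and Crim1 has 8 peaks in WT and 19 in IKDN.

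Merged over both genotypes, the TEAD1 peaks of the members formed 91 sites: 39 in both lists, 26 in WT alone and 26 in IKDN alone. All 8 Cyr61 sites and both Amotl2 sites were in both lists. Of the 10 Ctgf sites, 3 were in both lists, 5 in WT alone and 2 in IKDN alone. Of the 22 Crim1 sites, 14 were in IKDN alone. Of the members' WT peaks, 60% overlapped an IKDN peak (exact 95% interval 47.1 to 72.0%), beside 55.7% of all WT TEAD1 peaks. Of the members' IKDN peaks, the same 60% overlapped a WT peak, beside 39.1% of all IKDN TEAD1 peaks. Intervals cover counting error only, and peaks of 1 gene are not independent.

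At the starts, a TEAD1 peak within 1 kb was present at 7 members in WT and 5 in IKDN, beside 23.2% and 34.6% of all genes. Ctgf, Cyr61, Amotl2, Crim1 and Nuak2 had one in both genotypes, and Ankrd1 and Ajuba in WT alone. What lay over the TEAD1 peaks differed between genotypes. H3K27ac, an acetyl mark of active promoters and enhancers, overlapped 10 of 65 member peaks in WT (15.4%, interval 7.63 to 26.5%) and 28 of 65 in IKDN (43.1%, interval 30.8 to 56.0%). Over all TEAD1 peaks it was 31.8% in WT and 44.2% in IKDN, so the members lay below the rest of the list in WT and near it in IKDN. H3K27me3, the mark set by Polycomb, overlapped 13.8% of the member peaks in WT and 6.15% in IKDN, beside 6.65% and 5.87% of all TEAD1 peaks. MED1, a Mediator subunit that bridges enhancers and polymerase, overlapped 1 member peak in WT (1.54%) and 15 in IKDN (23.1%), below the 12.3% and 30.6% of all TEAD1 peaks in both genotypes. TEAD1 peaks are 176 bp wide in the WT list and 276 bp in the IKDN list, and wider peaks can meet more of any other list.

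Marks of active regulatory DNA covered more sequence at most members in IKDN. Here the threshold for a higher call is at least 1 kb more in IKDN and at least 1.5 times the length covered by peaks in WT, and the reverse for a lower one. For H3K27ac 7 members were higher and none lower, where 14.1% of all genes were higher and 10.8% lower. Cyr61 had no H3K27ac peak in the WT list and 6.02 kb in the IKDN list, and Amotl2 had none and 5.26 kb. At Nuak2 the peaks covered 7.59 kb in the WT list and 19.9 kb in the IKDN list, and at Crim1 7.04 and 22.5 kb. At Ajuba the peak over the start was 2.72 kb long in WT, rank 13845 in its list, and 7.37 kb long in IKDN, rank 1513. Axl had 2.19 and 4.62 kb, and Ankrd1 6.13 and 9.61 kb.

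Ctgf, Amotl1 and Frmd6 were the members not called for H3K27ac. Ctgf had a single peak of 0.5 kb in WT, 42.4 kb from the start, and none in IKDN. For Amotl1 the WT and IKDN lengths were 10.6 and 9.53 kb, and for Frmd6 9.84 and 14.1 kb. The 7 members called higher were also the ones called with equal peak numbers, with the top-scored 50% of each list and within 50 kb of the start.

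H3K4me1, which marks enhancers, was higher at 8 members and lower at none (15.5% and 14.4% of all genes). Ctgf was among them, at 2.74 and 6.26 kb (WT and IKDN), and so was Cyr61 at 0.5 and 2.03 kb. The WT peak of Cyr61 ranked 4492, 9.76% from the top. The best of its IKDN peaks ranked 34775, 72.8% from the top. With the top-scored 50% of each list, Cyr61 had 500 bp in WT and 0 in IKDN and was not called. Frmd6 had 15.3 and 37.1 kb. H3K4me2, found at promoters and enhancers, was higher at 7 and lower at none (10.7% and 9.18%). Ctgf with 0.661 and 4.16 kb and Cyr61 with 0 and 5.63 kb were among the 7. With the top-scored 50% of each list, Cyr61 was called for H3K4me2 and Ctgf was not. Over the gene body with 10 kb flanks, Ctgf had neither H3K4me1 nor H3K4me2 in either genotype. H3K4me3, the promoter mark, called no member in either direction (3.1% and 6.55%). It lay within 1 kb of the start of 9 members in WT and 8 in IKDN, beside 55.3% and 54.2% of all genes. Ctgf was the difference in presence, with a peak of 0.913 kb at the start in WT and none in IKDN. The rank of the start peak did differ, in lists of 19110 peaks (WT) and 18057 (IKDN). It was 7246 in WT and 987 in IKDN at Ajuba, 12130 and 5222 at Amotl2, and 10526 and 5317 at Nuak2. At Amotl1, Axl, Crim1 and Frmd6 it also stood nearer the top in IKDN. At Cyr61 it stood 74.9% from the top in WT and 76.1% in IKDN. No share of all genes is set beside these ranks, so they are not read as particular to the members. The labels give the WT and IKDN H3K4me3 libraries different antibody catalogue numbers, and the IKDN number is that of the H3K4me1 libraries.

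H3K36me3, which is laid down along transcribed gene bodies, was higher at 7 members and lower at none (16.5% and 5.47%). At Amotl2 no peak was listed in WT, and in IKDN a single peak of 14.2 kb lay over the gene, rank 1942 of its list. The WT and IKDN lengths were 1.81 and 13.1 kb at Nuak2, 2.72 and 13.5 kb at Ajuba, and 4.67 and 27.7 kb at Crim1. Amotl1, which was not called for H3K27ac, had 15.9 and 29.4 kb of H3K36me3. Frmd6 had 7.91 and 12.985 kb and Axl 0 and 1.15 kb. Ctgf and Cyr61, both short genes, had no H3K36me3 peak in either genotype.

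H3K27me3 split the members. It was higher in IKDN at Ctgf and Cyr61 and lower at Ankrd1, Ajuba, Axl and Crim1, so 2 were higher and 4 lower, where 17.8% of all genes were higher and 20% lower. At Ajuba a peak of 6.69 kb over the start and first part of the gene in WT, rank 586 of 79736, had no counterpart in IKDN, and the gene's total went from 7.35 kb to 0. For Axl 5.16 kb in the WT list had no counterpart in the IKDN list, and for Ankrd1 the lengths were 8.26 and 1.70 kb. The Ankrd1 peak within 1 kb of the start was not shorter in IKDN. It was 0.928 kb long in WT, rank 26782, and 1.70 kb long in IKDN, rank 22280. At Ctgf no peak was listed in WT, and 2.44 kb lay over the start in IKDN. Cyr61 had 8.00 kb in the WT list and 17.7 kb in the IKDN list, with a peak of 12.4 kb over the start in IKDN, rank 1157 of 78075.

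At Amotl2 the gene total and the start differed. Its WT and IKDN totals of 14.1 and 18.7 kb were not called. The peak over the start was 5.70 kb long in WT, rank 1714, and 0.5 kb long in IKDN, rank 57507. Most of the IKDN length was a single peak of 15.1 kb at -32.2 kb. Nuak2 had no H3K27me3 peak in either genotype.

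RNAPII here is RNA polymerase II phosphorylated on serine 5, the form of early transcription. It was higher at 3 members and lower at 5, where 17.5% of all genes were higher and 15.9% lower. The higher members were Ajuba, at 1.47 and 13.8 kb (WT and IKDN), Nuak2, at 1.92 and 14.995 kb, and Axl, at none and 1.92 kb. Of the members, Ctgf and Cyr61 had their best RNAPII peak in the top 5% of the WT list, and Ajuba and Nuak2 in that of the IKDN list, beside 9.29% and 9.46% of all genes. The lower members included both matrix genes. At Ctgf a single WT peak of 5.56 kb ran from -306 to 5254 bp around the start, over the whole gene, rank 1098 of 51299. In IKDN 3 separate peaks summed to 3.02 kb, and the best ranked 21068 of 52427. Cyr61 had 20.7 kb in WT, most of it in a peak of 16.2 kb at rank 334, and 8.14 kb in IKDN. Frmd6 had 17.5 and 5.92 kb, Crim1 8.77 and 4.90 kb, and Amotl2 5.30 and 2.87 kb. At these 3 members the peak over the start itself stood nearer the top of the IKDN list. It ranked 13684 in WT and 5845 in IKDN at Amotl2, 15376 and 9315 at Crim1, and 5063 and 4275 at Frmd6. That peak was longer in IKDN at Crim1 (1.82 and 2.70 kb) and Frmd6 (4.205 and 4.57 kb) and shorter at Amotl2 (2.25 and 1.59 kb). The ranks of these RNAPII peaks over the start also have no share of all genes beside them. Ankrd1, with 3.88 and 4.40 kb, and Amotl1, with 8.72 and 11.1 kb, were not called. Counted by number of peaks, 3 members were higher (Ctgf, Axl and Nuak2) and 2 lower (Crim1 and Frmd6). Ctgf thus turns with the measure, 1 long peak in WT against 3 short ones in IKDN.

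**Figure D2:**
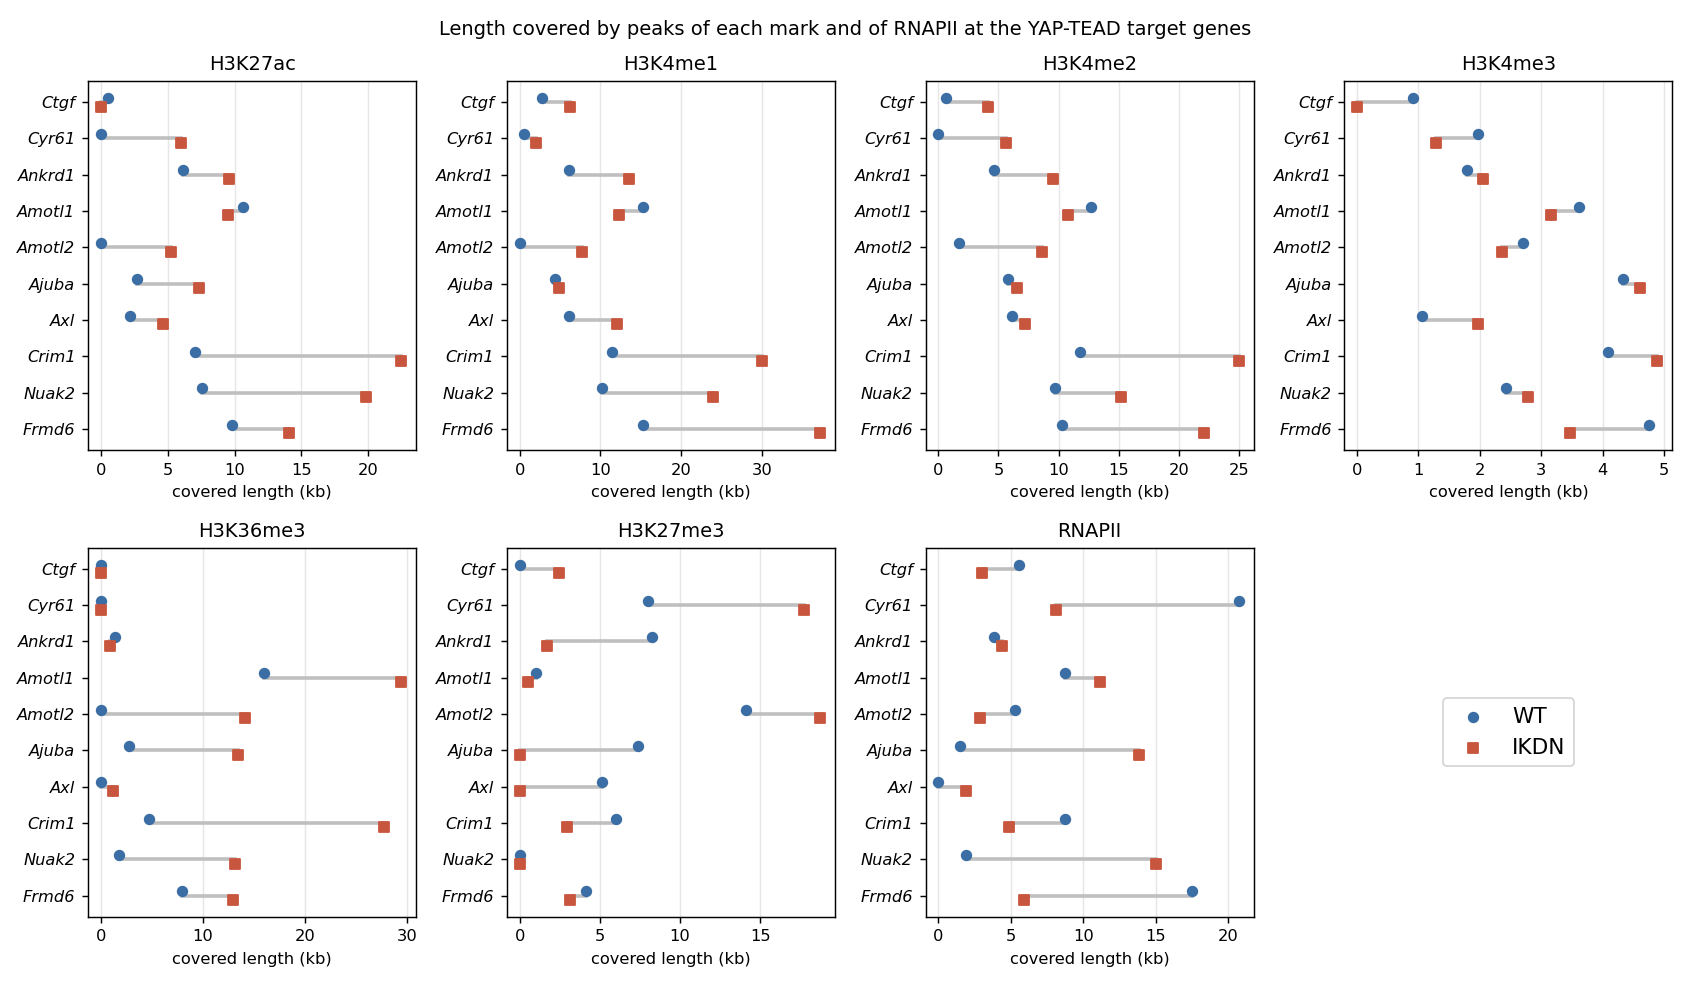
Length in kb covered by peaks named for each member, for 6 histone marks and RNAPII, in WT (circles) and IKDN (squares), 1 library each. H3K27ac and H3K36me3 lie to the right in IKDN at most members, while Ctgf and Cyr61 lie to the right for H3K27me3 and to the left for RNAPII.

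Side by side, the members fell into unlike patterns. Ajuba and Axl had more H3K27ac, H3K36me3 and RNAPII and no H3K27me3 in IKDN. At Axl the H3K36me3 was 1.15 kb in 2 peaks, the best 81.4% from the top of its list. With the top-scored 50% of each list, H3K36me3 and RNAPII were not called at Axl. Over the gene body with 10 kb flanks, none of the 3 was called there. Nuak2 had more of the same 3 and no H3K27me3 in either genotype. Amotl2, Crim1 and Frmd6 had more H3K4me1 and H3K36me3 and a shorter summed RNAPII length. Their RNAPII peak over the start stood nearer the top of its list in IKDN. Cyr61 had more H3K27ac and more H3K27me3 together with less RNAPII, and in IKDN a peak of 4.80 kb of H3K27ac and one of 12.4 kb of H3K27me3 both covered its start. A bulk library does not show whether these lay on the same copies. Ctgf had more H3K4me1, H3K4me2 and H3K27me3, a shorter RNAPII length in more peaks, and no H3K27ac peak in IKDN. The H3K4me1 and H3K4me2 lay away from the gene. Their best IKDN peaks were 46865 bp (H3K4me1) and 28625 bp (H3K4me2) from the start. Over the gene body with 10 kb flanks, neither mark had a peak at Ctgf in either genotype. With the top-scored 50% of each list, H3K4me1 was called higher at Ctgf and H3K4me2 was not called. Ankrd1 had more H3K27ac, H3K4me1 and H3K4me2 and a shorter summed H3K27me3 length, though not at the start. Amotl1 was called for H3K36me3 alone among the marks and RNAPII.

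**Figure D3:**
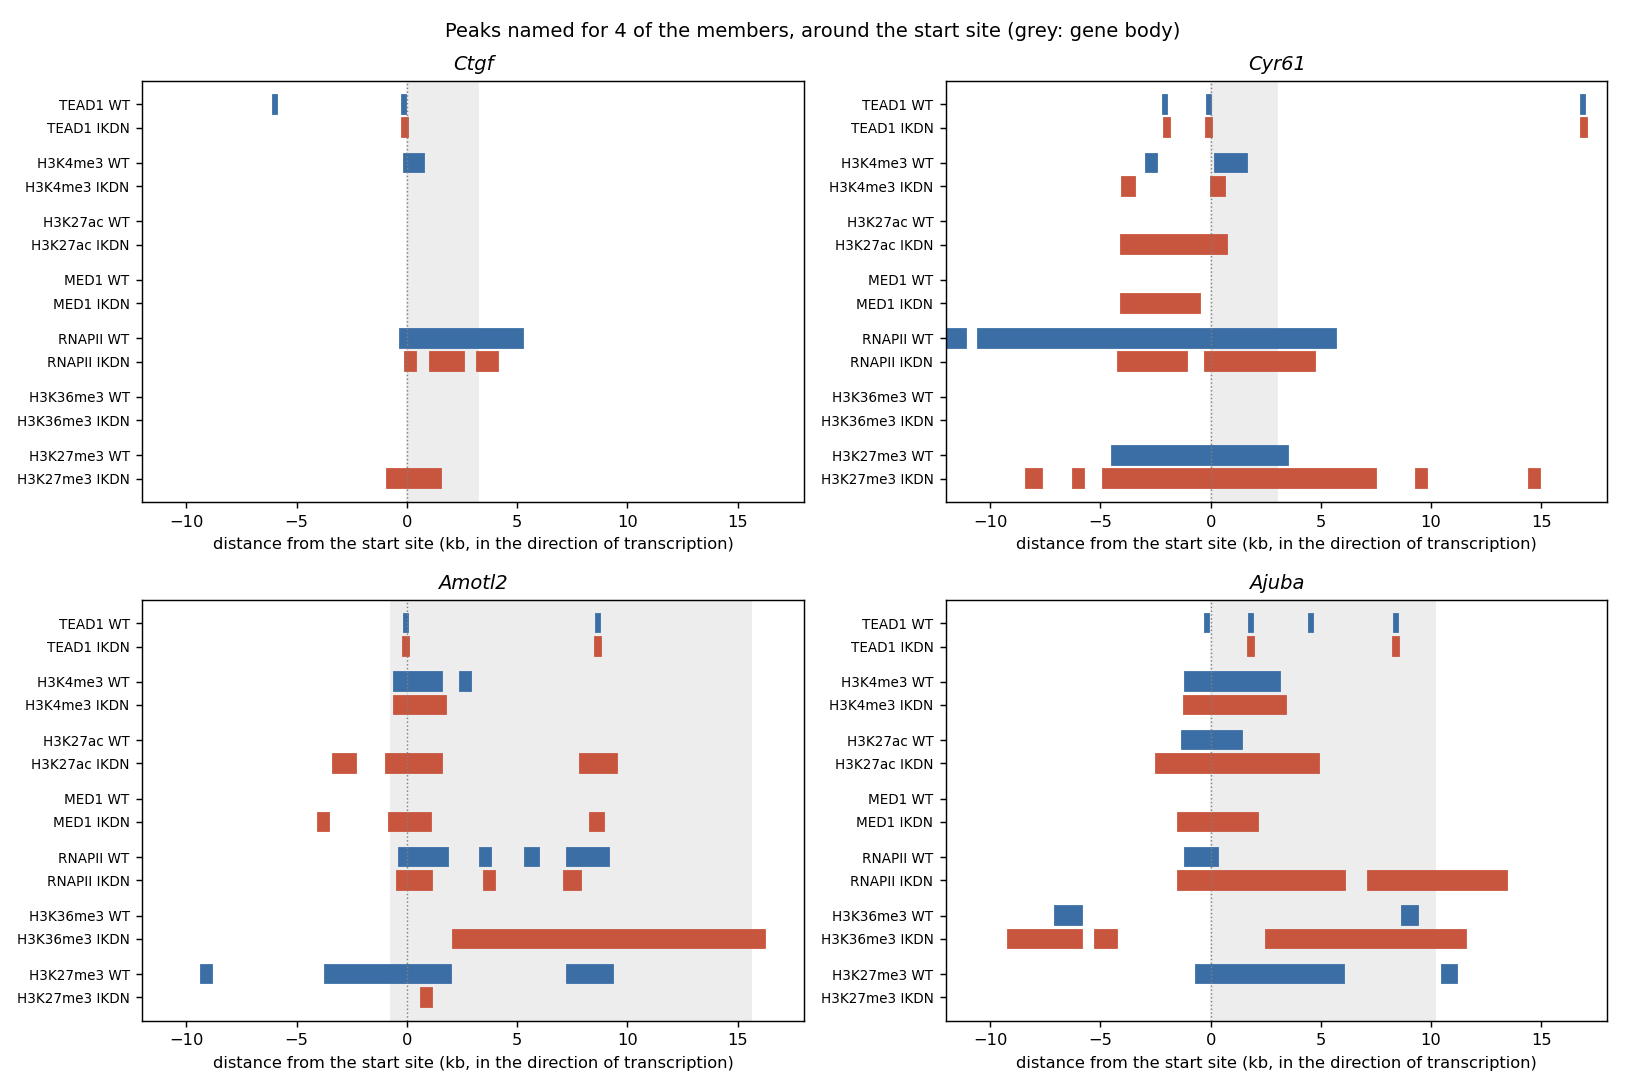
Peaks named for Ctgf, Cyr61, Amotl2 and Ajuba by distance from the start site in kb, in the direction of transcription, with the gene body in grey, WT in blue and IKDN in red. At Ctgf the WT RNAPII peak of 5.56 kb covers the gene and H3K27me3 is seen in IKDN alone, while at Ajuba the WT H3K27me3 peak of 6.69 kb is absent from IKDN, where H3K27ac and MED1 lie over the start and the first part of the gene, and RNAPII and H3K36me3 reach further along it.

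H3K4me3 and H3K27ac at markers of stromal fibroblasts also differed between the genotypes, and RNAPII at pre-B markers did too. Of 12 markers, 8 had an H3K4me3 peak within 1 kb of the start in WT, summing to 27.5 kb, and 3 had one in IKDN, summing to 2.38 kb. For H3K27ac it was 8 markers with 11.6 kb in WT and 3 with 1.5 kb in IKDN. For RNAPII, 5 stromal markers had a peak in each genotype, summing to 14.1 kb (WT) and 14.6 kb (IKDN). Postn, Dcn and Lum had no peak of these 3 targets in either genotype. By peaks named for the gene and centred within 2.5 kb of the start, H3K4me3 was found at 7 and 3 stromal markers, H3K27ac at 8 and 4, and RNAPII at 4 and 5. Of 10 pre-B markers, H3K4me3 overlapped the start of 10 in WT and 9 in IKDN, Rag1 being the exception, with 79.7 and 61.5 kb in all. H3K27ac overlapped 10 and 8, with 130.2 and 99.9 kb. RNAPII overlapped 10 and 8. Its summed length was 712.1 kb in the WT list against 260.1 kb in the IKDN list, beside the lower RNAPII called at 5 members. These lengths count the whole of each peak that meets a start, also where it runs beyond the marker gene. All RNAPII peaks together covered 119504914 bp in WT and 99840378 bp in IKDN. Rag1 and Rag2 were the pre-B markers at 0 for H3K27ac and RNAPII in IKDN. By the centred rule H3K4me3 was found at 7 pre-B markers in both genotypes, H3K27ac at 7 and 4, and RNAPII at 2 and 3. The RNAPII length by that rule went the other way, 31.5 kb in WT and 46.7 kb in IKDN. The part of either marker list in the members' values was not tested.

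MED1 and several B lineage factors had more peaks at the members in IKDN. MED1 had 2 member peaks in WT, 1 each at Nuak2 and Frmd6, and 27 in IKDN, with at least 1 at each of the 10 members. At least 1 MED1 peak was listed for 33.4% of all genes in WT and 51.9% in IKDN. By number of peaks 7 members were higher and none lower, where 12.2% of all genes were higher and 1.26% lower. The WT MED1 list is shorter, with 12062 peaks against 24201, and with equal peak numbers 3 members were higher (Ankrd1, Crim1 and Nuak2). At the start, MED1 lay at Frmd6 in WT and at 8 members in IKDN, beside 28.4% and 45.6% of all genes. Its best member peaks in IKDN were at Ankrd1, -9.66 kb from the start, rank 958, and over the start of Ajuba, rank 997.

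IRF4, an interferon regulatory factor of B cells, had 11 member peaks in WT and 40 in IKDN, 14 of them named for Crim1. It was higher at 7 members and lower at none (12.8% and 1.68% of all genes). Crim1 had 2 and 14, Nuak2 2 and 6, Ankrd1 2 and 5, and Frmd6 2 and 5. Ajuba had none in WT and 3 in IKDN, and Amotl2 and Axl each had none and 2. Ctgf had 1 and 1, and Cyr61 had 1 and 0. With equal peak numbers 5 members were higher. ETS1, of the ETS family, was higher at 5 members and lower at none (12.7% and 2.07%), among them Amotl2 and Axl with none in WT and 3 in IKDN each. With equal peak numbers 2 were higher, Amotl2 and Nuak2. The ETS1 labels differ between genotypes in the antibody catalogue number. The labels of the IRF4 and PAX5 libraries of both genotypes and of the IKDN E2A library carry the same number.

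EBF1, a pioneer factor of the B lineage, was higher at Ankrd1, Amotl2 and Crim1 and lower at none (9.42% and 2.27%). Amotl2 had 1 EBF1 peak in WT and 4 in IKDN, and it was the 1 member higher when peaks were limited to 50 kb from the start. PAX5, which fixes B cell identity, could be compared at 8 members, since its IKDN list stops partway along chromosome 9, which carries Amotl1 and Amotl2 and was left out. It was higher at 3 and lower at 1 (13.2% and 3.37%): Ctgf with 1 and 6 peaks, Cyr61 with 0 and 3, and Crim1 with 19 and 38 were higher, and Ajuba with 4 and 2 was lower. Ctgf and Cyr61, for which IRF4 and ETS1 called nothing, were thus called for PAX5. With the top-scored 50% of each list they were not, and Ankrd1 and Nuak2 were higher. E2A, whose WT list lacks several chromosomes and whose labels differ in the antibody number, that of IKDN being the IRF4 and PAX5 one, could be compared at 6 members. Ajuba and Nuak2 were higher and Crim1 lower (3.12% and 15%), and with equal peak numbers Crim1 was higher as well. Aiolos, a relative of Ikaros, had 2 member peaks in WT and 8 in IKDN, and Ankrd1, Amotl2 and Frmd6, each with 0 and 2, were higher and none lower (0.773% and 1.39%). With the top-scored 50% of each Aiolos list no member was higher or lower.

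Many of the Crim1 calls rest on distant peaks. Within 50 kb of its start, IRF4 had 0 peaks in WT and 1 in IKDN, MED1 also 0 and 1, EBF1 1 and 1, PAX5 2 and 3, and E2A 1 and 1, so that none of these was called. H3K4me1 and H3K4me2 at Crim1 were not called there either. The calls for H3K27ac, H3K36me3 and ETS1 (higher) and for H3K27me3 and RNAPII (lower) were also made within 50 kb.

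**Figure D4:**
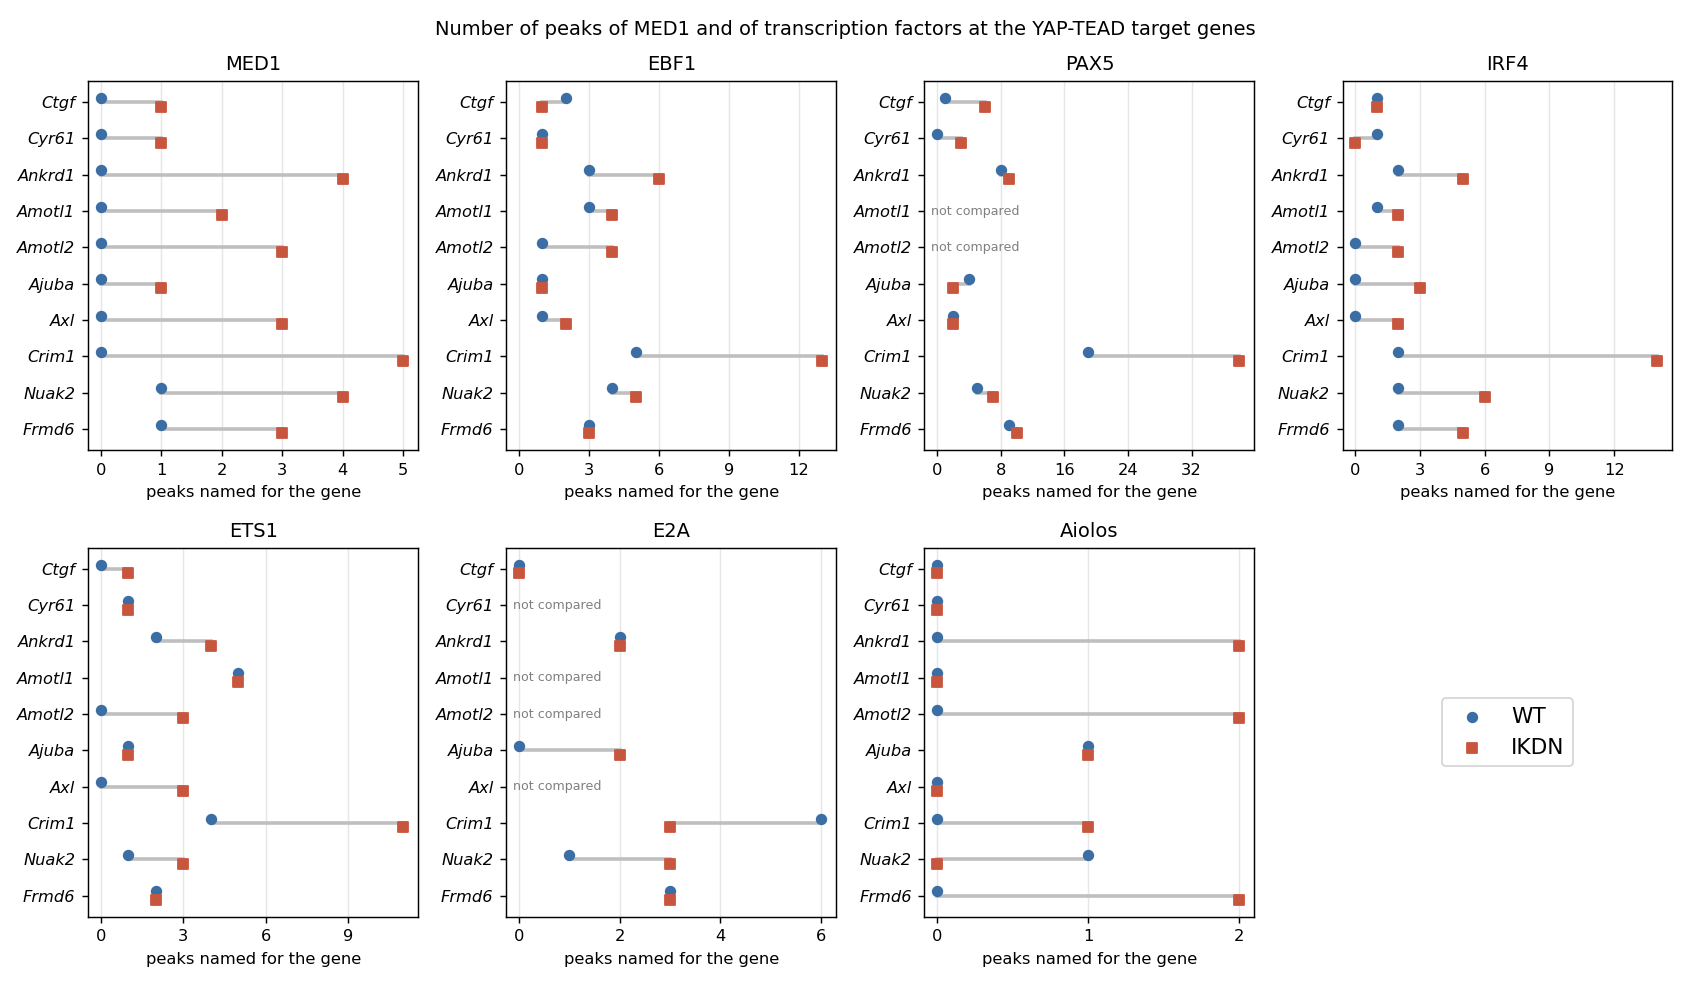
Number of peaks named for each member, for MED1 and 6 transcription factors, in WT (circles) and IKDN (squares), 1 library each. MED1 and IRF4 lie to the right in IKDN at most members, Crim1 has the most peaks of EBF1, PAX5, IRF4 and ETS1 in IKDN, and members on chromosomes that a list lacks are written as not compared.

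Ikaros itself was mapped in WT cells alone and had 34 peaks at 9 of the 10 members, while 61% of all genes had at least 1. Amotl2, with the strongest TEAD1 peak of the set, had none. The best Ikaros peaks were at Nuak2, 25.7 kb from the start, rank 1356 of 42621, and at Frmd6, 27.7 kb from the start, rank 1791. These were the members with a peak in the top 5% of the list, beside 6.7% of all genes. Of the members' WT TEAD1 peaks, 11 of 65 overlapped an Ikaros peak (16.9%, interval 8.76 to 28.3%), beside 19.9% of all WT TEAD1 peaks.

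LHX2, a LIM homeobox factor, was mapped in IKDN cells alone, and its labels carry the antibody number of the WT E2A and IKDN ETS1 libraries. It had a peak at each of the 10 members, beside 43.5% of all genes. The best were at the matrix genes: rank 205 of 26620 at Cyr61, -41.1 kb from the start, and rank 351 at Ctgf, 47.4 kb from the start. Crim1 followed with rank 772 at -604 kb. These 3 members had a peak in the top 5%, beside 4.6% of all genes. The Cyr61 LHX2 peak lay over a TEAD1 site that ranked 2200 in WT and 28031 in IKDN, and the Crim1 one over a TEAD1 site seen in IKDN alone, rank 1485. LMO2, a LIM-only bridging protein, had peaks at 8 members, beside 30.9% of all genes. Its best was at Frmd6, 27.7 kb from the start, rank 532 of 15422, and Frmd6 was the 1 member with a peak in the top 5%, beside 2.82% of all genes. The best Ikaros peak of Frmd6 in WT lay at the same distance. Of the members' IKDN TEAD1 peaks, 23.1% overlapped LHX2 (interval 13.5 to 35.2%) and 10.8% LMO2 (interval 4.44 to 20.9%), beside 19.7% and 15.2% of all IKDN TEAD1 peaks.

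Some TEAD1 sites gathered many other lists. The Ankrd1 site at -117 kb overlapped no other WT list, and in IKDN it overlapped H3K27ac, H3K4me1, H3K4me2, MED1, RNAPII, LHX2, EBF1, PAX5, E2A, IRF4, ETS1 and Aiolos. The Amotl2 promoter site overlapped H3K27me3, H3K4me2, H3K4me3 and RNAPII in WT. In IKDN it overlapped H3K27ac, MED1, Aiolos, E2A, EBF1 and IRF4 besides H3K4me2, H3K4me3 and RNAPII, and not H3K27me3. The WT E2A list and the IKDN PAX5 list lack this region. The Ctgf promoter site overlapped H3K4me3 and RNAPII in WT and H3K27me3 and RNAPII in IKDN. At the other 9 Ctgf sites, 1 overlapped any other list, a site 40.4 kb from the start.

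The rest of the pathway was read from lists of other genes. Of 18 genes for TEAD factors, coactivators and Hippo kinases, TEAD1 itself was called higher at 4 (Tead1, Vgll4, Wwc1 and Taok1) and lower at none. Wwc1, the kidney and brain protein KIBRA upstream of the kinases, had 0 peaks in WT and 13 in IKDN, and the largest difference the other way, 10 and 8 peaks at the angiomotin gene Amot, was not called. H3K27ac was higher at 4 of the 18 and lower at 2, with the largest drop at Stk3, which codes for the kinase MST2, from 20.5 to 2.92 kb. The largest difference upward, 19.3 and 27.6 kb at Tead1, was not called. For H3K36me3, 10 were higher and 1 lower, and the largest difference was at Yap1, 0 kb against 43.9 kb in IKDN. The lower gene was Mob1a, a cofactor of the LATS kinases, at 19.9 and 0 kb. H3K27me3 was higher at 3 and lower at 8, with Amot at 30.4 and 68.6 kb and Tead1 at 31.4 and 15.2 kb. RNAPII was higher at 4 and lower at 4, with Yap1 at 0.65 and 3.69 kb and Stk4, which codes for the kinase MST1, at 88.5 and 41.6 kb.

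Of 15 other genes often read as YAP targets, TEAD1 was higher at 6 and lower at 4. Tgfb2, a growth factor, had 3 and 16 peaks, and Igfbp3, a binding protein for insulin-like growth factors, had 9 and 2. H3K27ac was higher at 5 and lower at 2, with Ptpn14, a phosphatase that binds YAP, at 0.678 and 29.6 kb, and Foxf2, a forkhead factor, at 8.23 and 0 kb. For H3K36me3, 7 were higher and none lower, and Ptpn14 had 0 and 39.5 kb. For H3K27me3, 6 were higher and 4 lower, with Asap1 at 46.1 and 107.4 kb and Fjx1 at 29.3 and 7.68 kb. For RNAPII, 4 were higher and 3 lower, with Ptpn14 at 1.06 and 19.8 kb and Tgfb2 at 10.96 and 3.998 kb. The share of all genes called is that given above for each target.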

How the data were processed

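The analysis started from the authors' deposited peak lists, 1 per library. Tools listed in the submitters' processing notes are HOMER, STAR, BWA and bcl2fastq 1.8.3, and the builds listed are mm9 and mm10. For 99.0% of 23553 genes, the start worked out from the lists lay within 1000 bp of the gene in GRCm38.p6 (mm10). Per the file headers, each list gives a peak's position, its peak score, whose scale the sources used here do not state, its distance to the nearest start, and that gene's name. Read depth is unknown. Peaks on the 19 autosomes and X were used, without chromosomes on which a list was incomplete (last peak over 10 Mb early): 9 in the WT E2A list, 1 in WT ETS1 and 2 in IKDN PAX5. Covered length was used for marks and RNAPII, and number of peaks for MED1 and the factors, most of which have a fixed peak width per list. Calls are thresholds, not tests. Intervals are exact 95% Clopper-Pearson. Scripts used Python 3.11.15, pandas 2.3.3, numpy 2.4.6, scipy 1.17.1 and matplotlib 3.10.9 and were tested on simulated data.

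The members, the other gene lists and the markers were chosen with earlier results of these data known. All 10 members are named, and of each other list the gene with the largest difference in each direction for the targets described. The promoter search, the 1 kb start windows for genes and markers and the top 5% were chosen after seeing the data. Alternatives were equal peak numbers, the top-scored 50% of each list, peaks within 50 kb of the start, the gene body with 10 kb flanks, the other measure, and other overlap rules.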

Additional observations from a re-analysis of the deposited data

How the results depend on the processing

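Values are members called higher minus members called lower. For H3K27ac, H3K4me1 and H3K4me2, all 5 alternatives stayed within 1.5 times the reported difference. With equal peak numbers, TEAD1 went from 0 to -4, MED1 from 7 to 3, E2A from 1 to 3 and ETS1 from 5 to 2. With the top-scored 50% of each list the values were -3 for TEAD1, 2 for H3K4me3, -1 for H3K27me3, 0 for RNAPII, 3 for MED1, 3 for ETS1 and 0 for Aiolos, and 46.5% of the members' WT TEAD1 peaks were shared. Within 50 kb of the start they were 1 for TEAD1, 1 for H3K4me3, 1 for EBF1, 1 for PAX5, 2 for E2A and 1 for Aiolos. Over the gene body with 10 kb flanks they were -1 for TEAD1, 1 for H3K4me3, -4 for RNAPII, 1 for EBF1, 1 for PAX5, 2 for E2A and 1 for Aiolos. With the other measure they were 1 for TEAD1, 2 for H3K36me3, -4 for H3K27me3, 1 for EBF1, 0 for E2A, 2 for IRF4, 1 for ETS1 and 0 for Aiolos, and RNAPII turned from -2 to 1. The cause of these moves was not tested. Requiring 50% of the TEAD1 peak to be covered took Aiolos from 4 of 65 member peaks in IKDN to 0, its peaks being 112 bp wide.

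The motif was not searched in the TEAD1 peaks themselves, neither in 6 letters nor in the longer form, because no genome was used here. No paired analysis was possible because each target and genotype has 1 library and the labels carry no replicate numbers. With 1 library per group, the spread between cultures is unknown, and so is the depth behind the lists.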
